A study of Caenorhabditis elegans with 15 samples.

Results

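The small heat shock protein genes of the hsp-16 family were measured in whole young adult Caenorhabditis elegans of the wild-type N2 strain after 6 h at 20 °C in a plant preparation or its solvent. Members were the probe sets of the array that its annotation assigns to hsp-16.1, hsp-16.11, hsp-16.2, hsp-16.41, hsp-16.48 or hsp-16.49, including those shared by 2 of these genes. These 6 genes, of 26248 genes named on the array, had 6 of the 29317 probe sets of the Affymetrix C. elegans Gene 1.0 ST array. The groups were the crude hydro-ethanolic leaf extract of Combretum mucronatum (RE), the negative control in 1% DMSO, and fraction H3, enriched in oligomeric procyanidins from the same leaves, at 0.02, 0.2 and 2 mg/mL (H3 0.02, H3 0.2 and H3 2). DMSO was the solubilizer in all 5 groups, and each group had 3 arrays from independent incubations. For RE the sample titles and the study's methods give 0.2 mg/mL, whereas the treatment field of the labels gives 2 mg/mL, so that its comparison with H3 0.2 is at a matched concentration only if the titles hold. Because whole worms were lysed, RNA of all tissues was pooled, and a change in 1 tissue cannot be told apart from a change in the share of that tissue.

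Small heat shock proteins are chaperones with an alpha-crystallin domain that hold unfolding proteins in solution without using ATP. The hsp-16 genes of C. elegans are nearly silent in unstressed worms and are induced by heat and by several chemical stresses, largely through the heat shock factor HSF-1, with an input from the insulin-pathway transcription factor DAF-16. They lie in divergently transcribed pairs, and the promoter of hsp-16.2 is widely used to drive stress reporters.

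All 6 genes are on chromosome V, at 2 places (positions from RefSeq, build WBcel235). One cluster holds 4 genes, with hsp-16.1 at chrV:9087293-9087782, hsp-16.48 at chrV:9088131-9088617, hsp-16.49 at chrV:9089280-9089766 and hsp-16.11 at chrV:9090077-9090604. It is an inverted duplication, in which hsp-16.1 and hsp-16.11 are near-identical copies and so are hsp-16.48 and hsp-16.49. The other place holds the pair hsp-16.2 at chrV:1804334-1804957 and hsp-16.41 at chrV:1805178-1805875. The array follows this layout. It has 2 probe sets shared by hsp-16.1 and hsp-16.11 and 2 shared by hsp-16.48 and hsp-16.49, and 1 probe set each for hsp-16.2 and hsp-16.41. The copies could thus not be told apart. The 2 probe sets of hsp-16.48/hsp-16.49 held identical values on all 15 arrays and were described as 1 measurement, which left 5 distinct measurements.

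Values are given on the log2 scale, as normalized by the study, so that a difference of 1 is a 2-fold change. All probe sets and all 15 arrays entered 1 limma fit. A probe set was called up-regulated or down-regulated when its p, adjusted by the Benjamini-Hochberg method, did not exceed 0.05 and it changed at least 2-fold. The array medians were 3.54 to 3.65. A first principal component with 52% of the variance parted the arrays into a set A of 8 and a set B of 7. Replicate 3 of the control, H3 0.02 and H3 2 and replicates 2 and 3 of H3 0.2 and RE were in set B. What the sets are is not given in the labels, and values within each set are given below. Of 31 markers of 7 worm tissues, 30 lay above the array median on every array. With 3 arrays a group, their number sets how precise a value can be.

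The probe sets of the larger cluster were up-regulated 14-fold to 24.7-fold in every treatment, at the lowest as at the highest concentration, whereas the probe sets of hsp-16.2 and hsp-16.41 stayed below the median of every array. Vs. the negative control, 4 of the 6 member probe sets were called with RE, 4 with H3 0.02, 5 with H3 0.2 and 4 with H3 2, all of them up-regulated. Of the 5 distinct measurements these were 3, 3, 4 and 3 in the same order of treatments. Of all probe sets, 0.399% were called up-regulated with RE, 0.304% with H3 0.02, 0.46% with H3 0.2 and 0.665% with H3 2. The hsp-16 genes were among those the study discussed from these same arrays, so that the counts are not independent evidence. All 4 comparisons also share the 3 control arrays.

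**Figure D1:**
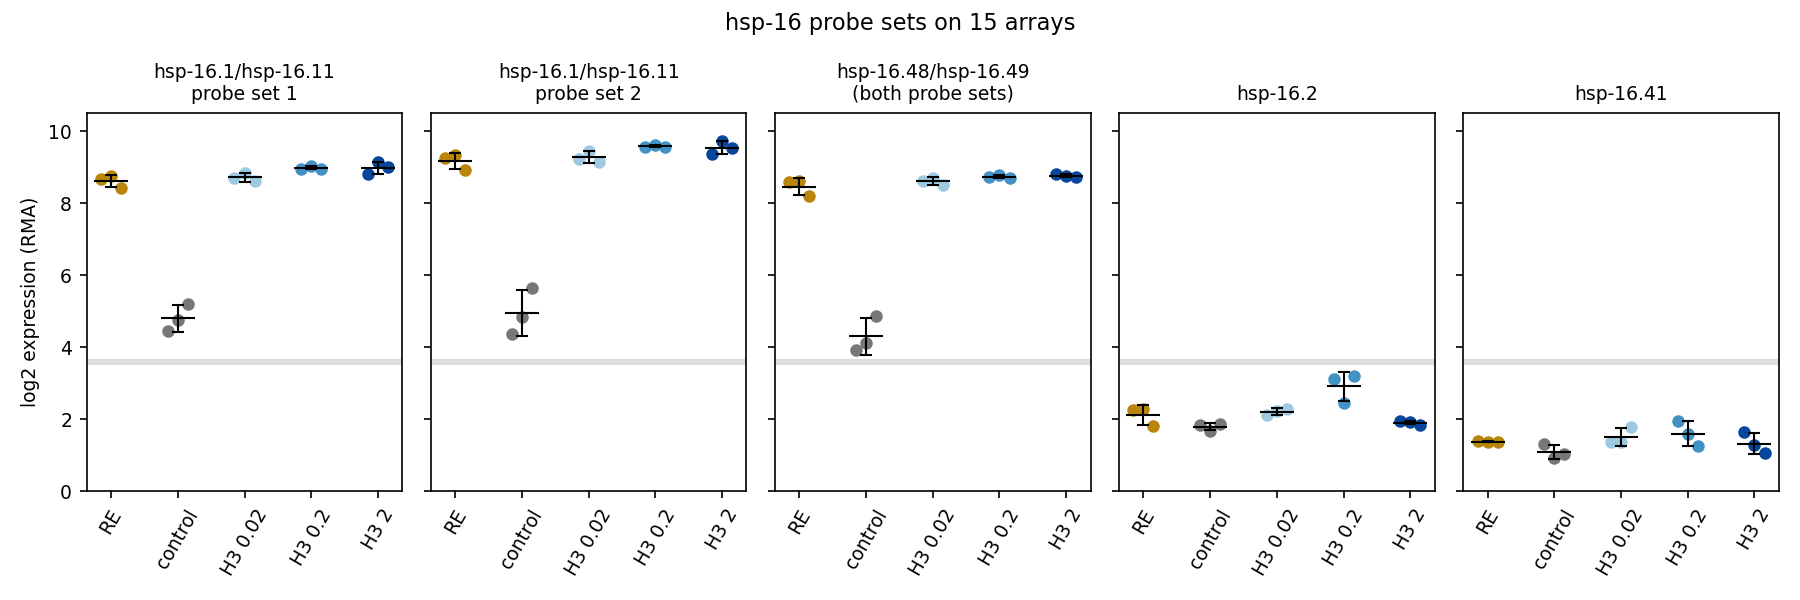
Log2 expression (RMA) of the 5 distinct hsp-16 measurements on each of the 15 arrays. Points are arrays in the order of their replicate numbers, lines and bars are the mean and SD of 3 arrays, and the grey band spans the array medians (3.54 to 3.65). In the 3 panels of the larger cluster every treated array lies at 8.19 or higher and every control array at 5.64 or lower, while all points of hsp-16.2 and hsp-16.41 are under the band.

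hsp-16.1 and hsp-16.11 encode the same small heat shock protein. Their first shared probe set had log2 values of 8.66, 8.75 and 8.42 with RE, against 4.46, 4.75 and 5.20 in the control. With fraction H3 it had 8.70, 8.84 and 8.60 at 0.02 mg/mL, 8.95, 9.02 and 8.95 at 0.2 mg/mL, and 8.80, 9.13 and 8.99 at 2 mg/mL. All 12 treated arrays lay more than 3 log2 units above the highest control array, and the treated groups lay close to one another. The log2 fold-change was 3.80 with RE (14-fold, 95% confidence interval on the log2 scale 3.43 to 4.18, adjusted p = 1.85e-07). It was 3.91 with H3 0.02 (15.1-fold, interval 3.53 to 4.29, adjusted p = 2.39e-07), 4.17 with H3 0.2 (18-fold, 3.79 to 4.55, adjusted p = 1.09e-07) and 4.17 with H3 2 (18-fold, 3.79 to 4.55, adjusted p = 7.25e-08).

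The second shared probe set of hsp-16.1/hsp-16.11 gave the same picture with a larger change. It had 9.26, 9.33 and 8.92 with RE, against 4.37, 4.84 and 5.64 in the control. With fraction H3 it had 9.23, 9.45 and 9.15 at 0.02 mg/mL, 9.56, 9.61 and 9.55 at 0.2 mg/mL, and 9.35, 9.73 and 9.54 at 2 mg/mL. Treated and control arrays did not overlap, and the control arrays differed among themselves by more than the arrays of any treated group. The log2 fold-change was 4.22 with RE (18.6-fold, 95% confidence interval 3.67 to 4.77, adjusted p = 1.4e-06). It was 4.33 with H3 0.02 (20.1-fold, 3.78 to 4.88, adjusted p = 2.06e-06), 4.63 with H3 0.2 (24.7-fold, 4.08 to 5.17, adjusted p = 6.94e-07) and 4.59 with H3 2 (24.1-fold, 4.05 to 5.14, adjusted p = 5.54e-07).

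hsp-16.48 and hsp-16.49, each transcribed away from its hsp-16.1 or hsp-16.11 neighbour, encode the other type of HSP-16 protein in this cluster. Their common measurement had 8.57, 8.61 and 8.19 with RE, against 3.92, 4.11 and 4.88 in the control. With fraction H3 it had 8.62, 8.71 and 8.51 at 0.02 mg/mL, 8.71, 8.79 and 8.70 at 0.2 mg/mL, and 8.81, 8.74 and 8.72 at 2 mg/mL. Again no treated array came near the control arrays, and RE replicate 3 was the lowest treated array. The log2 fold-change was 4.16 with RE (17.8-fold, 95% confidence interval 3.71 to 4.60, adjusted p = 2.46e-07). It was 4.31 with H3 0.02 (19.8-fold, 3.86 to 4.75, adjusted p = 2.76e-07), 4.43 with H3 0.2 (21.6-fold, 3.99 to 4.88, adjusted p = 1.95e-07) and 4.46 with H3 2 (21.9-fold, 4.01 to 4.90, adjusted p = 1.22e-07).

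Among all 29317 probe sets these measurements stood near the top by log2 fold-change. The second hsp-16.1/hsp-16.11 probe set ranked 12 with RE, 6 with H3 0.02, 5 with H3 0.2 and 11 with H3 2. The hsp-16.48/hsp-16.49 measurement ranked 13, 7, 7 and 12 in the same order of treatments, and the first hsp-16.1/hsp-16.11 probe set ranked 17, 11, 13 and 15. All 3 measurements ranked higher with H3 0.02 and H3 0.2 than with H3 2 or RE. Their log2 fold-changes were nonetheless not smaller with H3 2 than with H3 0.02. They were 4.59 against 4.33, 4.46 against 4.31 and 4.17 against 3.91 in the same order of measurements. A rank also depends on how far other probe sets changed.

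Spread was larger in the control than after treatment for these 3 measurements. The SD within groups was 0.14 over the treated groups and 0.37 in the control for the first hsp-16.1/hsp-16.11 probe set, 0.17 and 0.64 for the second, and 0.13 and 0.51 for hsp-16.48/hsp-16.49. In each of them control replicate 3, the only control array in set B, was the highest control array. Within set A the log2 differences between treated and control arrays were 4.05 to 4.36 for the first probe set of hsp-16.1/hsp-16.11, 4.65 to 4.96 for the second and 4.56 to 4.76 for hsp-16.48/hsp-16.49. Within set B, against that 1 control array, they were 3.38 to 3.79, 3.49 to 3.94 and 3.52 to 3.87 in the same order of measurements. The rise was therefore present in both sets and smaller in set B, where each value rests on 1 control array. Whether the array set has a part in the control spread was not tested. The limma intervals and p-values vs. the control rest on 1 spread estimated over all 5 groups. For these measurements the intervals may thus be too narrow and the p-values too small. Under the alternative settings given below, the largest adjusted p vs. the control was 0.0151 (limma).

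**Figure D2:**
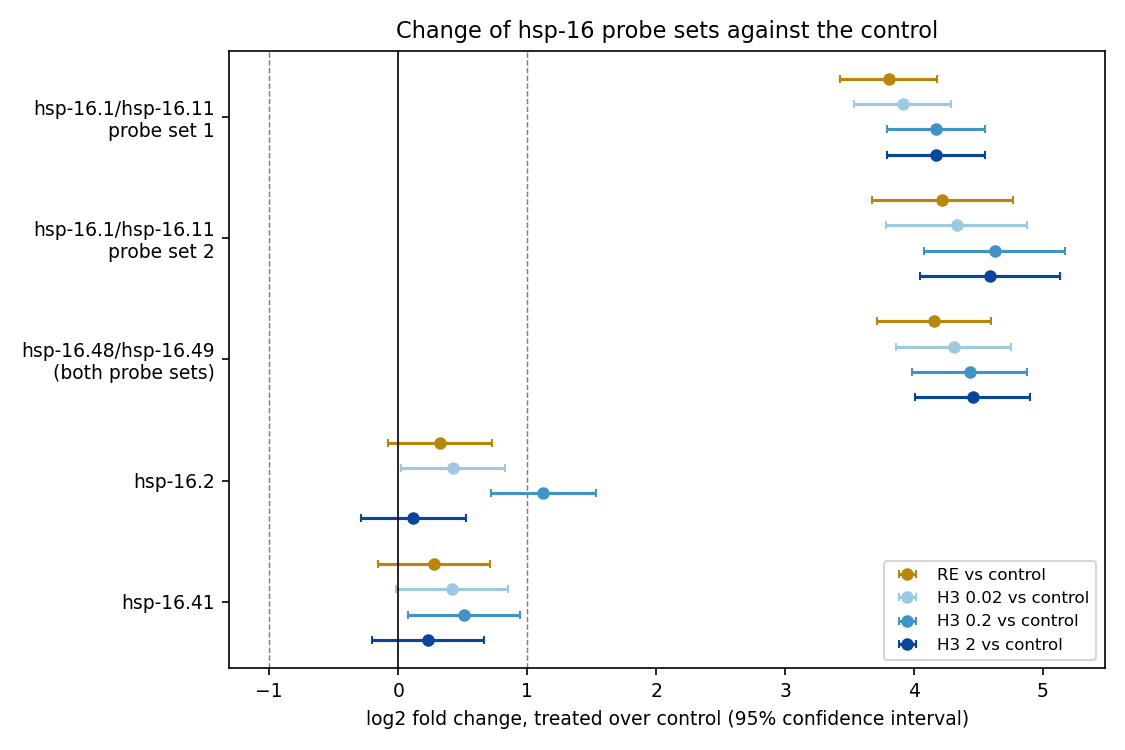
Log2 fold-change of each hsp-16 measurement, treated over control, with its 95% confidence interval from the limma fit (3 arrays a group). Dashed lines mark a 2-fold change. The measurements of the larger cluster lie between 3.80 and 4.63, and of the other 2 probe sets only hsp-16.2 with H3 0.2 lies past a 2-fold change, at 1.13.

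hsp-16.2, the gene behind the common stress reporter, had 2.26, 2.28 and 1.81 with RE, against 1.83, 1.69 and 1.85 in the control. With fraction H3 it had 2.11, 2.24 and 2.29 at 0.02 mg/mL, 3.11, 2.45 and 3.19 at 0.2 mg/mL, and 1.95, 1.92 and 1.85 at 2 mg/mL. Only the H3 0.2 arrays stood clear of the rest, 2 of them by much and replicate 2 by little. All 15 values lay below the array medians, so that the gene was not shown to be above background in any group, and the sizes of its differences cannot be read as changes of its RNA level.

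With that limit, hsp-16.2 was called with H3 0.2 at a log2 fold-change of 1.13 (95% confidence interval 0.72 to 1.53, adjusted p = 0.00781), as the fifth called member there. With only the 6 arrays of H3 0.2 and the control in the fit it was not called (1.13, adjusted p = 0.172), and without H3 0.2 replicate 3 it fell short of a 2-fold change (0.99, adjusted p = 0.0434). Within the array sets the difference was 1.35 in set A (1 treated array) and 0.97 in set B (1 control array). The values of the other treatments vs. the control were 0.33 with RE (adjusted p = 0.715), 0.42 with H3 0.02 (adjusted p = 0.653) and 0.12 with H3 2 (adjusted p = 0.895), none of them called.

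hsp-16.41, the divergent partner of hsp-16.2, was called in no comparison. It had 1.39, 1.36 and 1.37 with RE, against 1.31, 0.93 and 1.04 in the control. With fraction H3 it had 1.37, 1.37 and 1.79 at 0.02 mg/mL, 1.96, 1.58 and 1.27 at 0.2 mg/mL, and 1.64, 1.28 and 1.06 at 2 mg/mL. Groups overlapped with the control at H3 0.2 and H3 2, and all 15 values were below the array medians. Log2 fold-changes vs. the control were 0.28 with RE (95% confidence interval −0.15 to 0.72, adjusted p = 0.826), 0.42 with H3 0.02 (−0.01 to 0.85, adjusted p = 0.725), 0.51 with H3 0.2 (0.07 to 0.94, adjusted p = 0.35) and 0.23 with H3 2 (−0.20 to 0.67, adjusted p = 0.744).

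Whether the hsp-16 measurements changed by unequal amounts was tested within arrays. For each of the 10 pairs of measurements the difference on an array was compared between the 12 treated and the 3 control arrays by a two-sided exact permutation test. The smallest p it allows is 0.0044, and p-values were adjusted over the 10 pairs. The 7 pairs that hold hsp-16.2 or hsp-16.41 are not read here, since these probe sets were not shown to be above background in any group and a difference from them is not a measured excess of change. The adjustment over 10 pairs still counts these 7. Their mostly low p-values make the adjusted p-values printed below smaller than an adjustment over the remaining pairs would.

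Within the larger cluster the changes were close but not equal. The first hsp-16.1/hsp-16.11 probe set changed by 0.43 less than the second, although both measure the same genes (p = 0.0044, adjusted p = 0.00628, exact permutation test). The relabelings take no account of the array sets, and the difference between both changes was −0.59 over the 6 treated and 2 control arrays of set A but −0.12 over the 6 treated arrays and 1 control array of set B. The first probe set also changed by 0.32 less than hsp-16.48/hsp-16.49 (p = 0.00879, adjusted p = 0.011, exact permutation test). Split by array set, the difference from hsp-16.48/hsp-16.49 came to −0.44 for A and −0.12 for B. Its call over all arrays was lost without control replicate 1 (0.30 less) and without control replicate 2 (0.26 less; adjusted p = 0.0549 each, exact test). hsp-16.48/hsp-16.49 changed by 0.10 less than the second hsp-16.1/hsp-16.11 probe set (exact p = 0.259). The difference between hsp-16.1/hsp-16.11 and hsp-16.48/hsp-16.49 was thus no larger than that between the 2 probe sets of hsp-16.1/hsp-16.11.

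The measurements of the larger cluster also moved together from array to array. After the group means were taken away, the deviations of the 2 hsp-16.1/hsp-16.11 probe sets correlated at r = 0.99 over 15 arrays, and those of hsp-16.48/hsp-16.49 correlated with them at 0.88 and 0.92. Over the 12 treated arrays alone the values were 0.99 for the first and 0.66 and 0.70 for the other 2 correlations. The deviations of hsp-16.2 correlated with the 3 at 0.13 to 0.21, those of hsp-16.41 at −0.40 to −0.16, and hsp-16.2 and hsp-16.41 with each other at 0.12. These correlations are descriptions, since the probe sets share arrays and, for the hsp-16.1/hsp-16.11 probe sets, genes.

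The study used concentrations of fraction H3 that span 100-fold, and asked how the response depended on them. No hsp-16 probe set was called in any of the 4 comparisons between treatments (RE vs. H3 0.2, H3 0.2 vs. H3 0.02, H3 2 vs. H3 0.2 and H3 2 vs. H3 0.02). Of all probe sets, 0.0375% were called between H3 2 and H3 0.02, and 0% in each of the other 3 comparisons. The level of the larger cluster reached with H3 0.02 was within 1.23-fold of that with H3 0.2 and with H3 2.

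Between H3 2 and H3 0.02 the log2 difference was 0.26 for the first hsp-16.1/hsp-16.11 probe set (95% confidence interval −0.12 to 0.64), 0.26 for the second (−0.29 to 0.81) and 0.15 for hsp-16.48/hsp-16.49 (−0.30 to 0.59). Between H3 2 and H3 0.2 the same measurements differed by 0.00 (−0.38 to 0.38), −0.04 (−0.58 to 0.51) and 0.02 (−0.42 to 0.47). Between H3 0.2 and H3 0.02 they differed by 0.26 (−0.12 to 0.64), 0.30 (−0.25 to 0.84) and 0.13 (−0.32 to 0.57). None of these 9 intervals reaches a 2-fold difference in either direction, and all of them include 0. The spread behind these intervals is estimated over all 5 groups, and the control arrays varied most. The arrays themselves did not overlap between H3 0.2 and H3 0.02 for both hsp-16.1/hsp-16.11 probe sets, or between H3 2 and H3 0.02 for hsp-16.48/hsp-16.49. The share of all probe sets whose arrays did not overlap is not given here, so that this is a description alone.

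In the comparison of H3 2 with H3 0.02, arrays of the same replicate number deviated together and were also in the same array set. A shared replicate can thus not be told apart from a shared set. Set against each other, these arrays put H3 2 higher each time. The differences H3 2 minus H3 0.02 in replicates 1, 2 and 3 were 0.10, 0.29 and 0.39 for the first hsp-16.1/hsp-16.11 probe set, 0.12, 0.28 and 0.39 for the second, and 0.19, 0.04 and 0.21 for hsp-16.48/hsp-16.49. All 9 were above 0, but they come from 3 pairs of arrays read through measurements that moved together, so they are not 9 separate results. By replicate number, H3 0.2 minus H3 0.02 was also above 0 each time. H3 2 minus H3 0.2 had both signs, from −0.215 to 0.119. In these last 2 comparisons the replicate 2 arrays were in opposite array sets. With the replicate number in the model, too, no member was called between H3 groups.

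RE was lower than H3 0.2 on all 3 measurements of the larger cluster, with no overlap of the arrays, but by little. These measurements moved together, and the share of all probe sets without overlap is not given here. The log2 difference was −0.37 for the first hsp-16.1/hsp-16.11 probe set (95% confidence interval −0.75 to 0.01), −0.41 for the second (−0.95 to 0.14) and −0.28 for hsp-16.48/hsp-16.49 (−0.72 to 0.17), each with an adjusted p of 1.0 in limma. RE is a crude extract, and its content of procyanidins relative to H3 0.2 was not used here.

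The low probe set of hsp-16.2 had its highest values with H3 0.2 and lower ones on both sides of it. It was 0.70 higher with H3 0.2 than with H3 0.02 (95% confidence interval 0.30 to 1.11, unadjusted p = 0.00251, adjusted p = 0.999 in limma). It fell by 1.01 with H3 2 relative to H3 0.2 (interval of the difference −1.41 to −0.60, unadjusted p = 0.000137, adjusted p = 0.402 in limma), and fell by 0.80 with RE relative to H3 0.2 (−1.21 to −0.40, adjusted p = 1.0). None of these passed adjustment over all probe sets, and the values are below the array medians. For hsp-16.41 the 4 differences lay between −0.28 and 0.09.

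**Figure D3:**
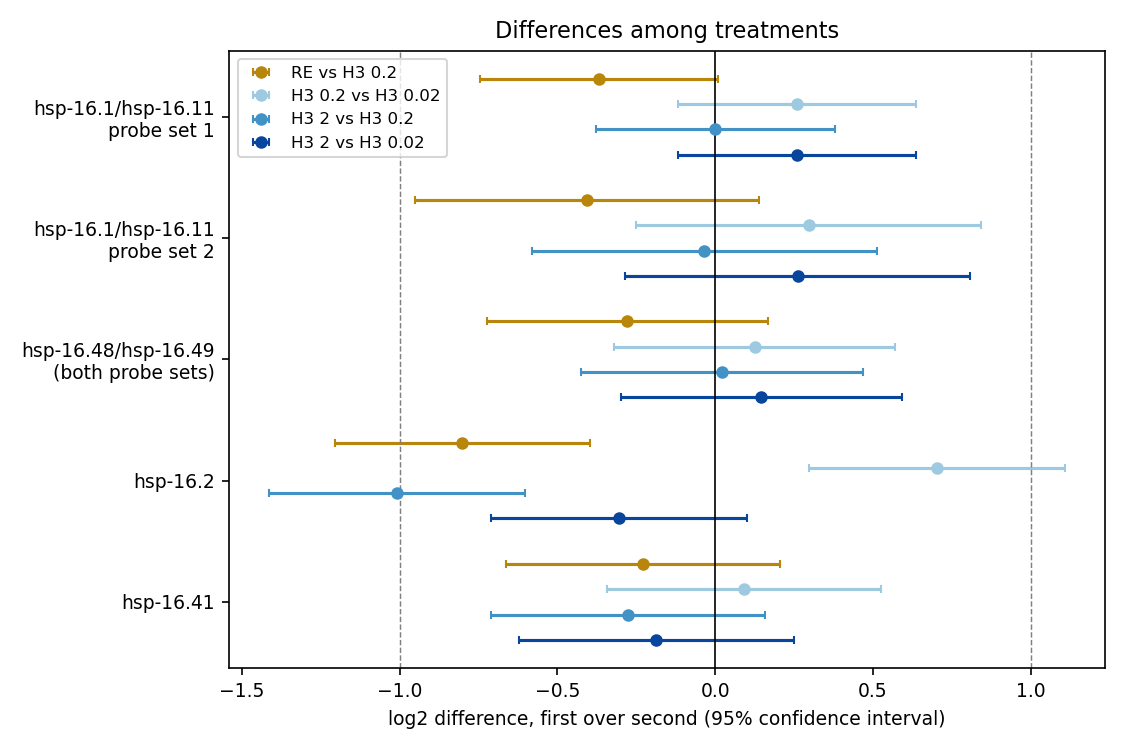
Log2 difference between treatments, first over second as named in the legend, for each hsp-16 measurement, with its 95% confidence interval from limma. Dashed lines mark a 2-fold difference. The intervals of the larger cluster include 0 and stay inside the dashed lines, and the largest difference is that of hsp-16.2 between H3 2 and H3 0.2, at −1.01.

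Other genes of protein homeostasis were examined for the same treatments, each list by its measured members. Of all 29317 probe sets, 2751 had an unadjusted p under 0.05 with RE (limma). The number was 2105 with H3 0.02, 3104 with H3 0.2 and 3768 with H3 2. Calls in either direction numbered 274, 183, 323 and 459 in the same order of treatments. Calls were thus rare over all probe sets, and a short list without any does not stand out from them. Of 11 other small heat shock protein genes, 0 were called in any comparison with the control (2 at an unadjusted p under 0.05 with RE, 2 with H3 0.02, 2 with H3 0.2 and 3 with H3 2, in limma). Their median log2 fold-change was −0.14 with RE, 0.03 with H3 0.02, 0.02 with H3 0.2 and −0.04 with H3 2, beside 0.01, −0.01, 0.02 and 0.02 over all probe sets. The 2 genes nearest to the hsp-16 family by name, hsp-16.20 (F08H9.3) and hsp-16.21 (F08H9.4), lay below the array medians on every array, with log2 fold-changes of −0.22 to 0.20. sip-1, a small heat shock protein of oocytes and embryos, had a log2 level of 11.89 ± 0.30 with RE, against 11.69 ± 0.23 in the control (SD, n = 3), and log2 fold-changes of 0.03 to 0.20 over the treatments.

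2 members of this list came close to the threshold with H3 2. hsp-17 had 4.63 ± 0.10 with H3 2, against 3.67 ± 0.01 in the control (SD, n = 3), which is a rise by 0.97 on the log2 scale that passed the p threshold but not the fold threshold (adjusted p = 0.0111). hsp-43 had 9.85 ± 0.73 with H3 2, against 7.74 ± 0.55 in the control, and a difference of 2.10 (adjusted p = 0.0711). The hsp-43 arrays of these 2 groups did not overlap. Blocking on the replicate number brought it past the threshold (adjusted p = 0.00437), and so did blocking on the array set (adjusted p = 1.52e-06), at the same fold-change. Its other log2 fold-changes, 1.05 with RE, 1.22 with H3 0.02 and 1.38 with H3 0.2, were not called (adjusted p = 0.656, 0.683 and 0.369). Blocking on the replicate number also brought hsp-43 past the threshold with H3 0.2 (adjusted p = 0.0499). With the array set in the model hsp-43 was called up-regulated in all 4 treatments (largest adjusted p = 0.000303).

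Of the 12 measured genes or gene pairs of the cytosolic heat shock response, several had an unadjusted p under 0.05. They numbered 5 with RE, 4 with H3 0.02, 3 with H3 0.2 and 5 with H3 2 (limma). Only 1 of the 12 was called in each treatment, up-regulated each time. It was the F44E5.4/F44E5.5 pair, which encodes an HSP70 chaperone of the inducible, cytosolic kind. Its first probe set had 6.73, 7.28 and 6.37 with RE, against 3.30, 3.28 and 3.75 in the control. With fraction H3 it had 7.73, 7.22 and 5.90 at 0.02 mg/mL, 7.04, 6.70 and 6.70 at 0.2 mg/mL, and 6.54, 5.95 and 6.90 at 2 mg/mL. Every treated array was above every control array, and 2 of the control arrays were below the array medians. The log2 fold-change was 3.35 with RE (adjusted p = 0.00071), 3.51 with H3 0.02 (adjusted p = 0.000722), 3.37 with H3 0.2 (adjusted p = 0.000652) and 3.02 with H3 2 (adjusted p = 0.00126). With only the 6 arrays compared, the call with H3 0.02 was lost (adjusted p = 0.0882).

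The second probe set of F44E5.4/F44E5.5 disagreed with the first in size. It lay below the array medians and had log2 fold-changes of 0.52 with RE, 0.37 with H3 0.02, 1.06 with H3 0.2 (adjusted p = 0.00174, called) and 0.61 with H3 2. Its call with H3 0.2 was lost when the fit held those 6 arrays alone (adjusted p = 0.0969), and its fold-change fell below 2 without H3 0.2 replicate 2 (0.97) or control replicate 1 (0.99).

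The rest of the cytosolic list was not called. hsp-70, the other strongly heat-inducible HSP70 gene, lay below the array medians on every array, with log2 fold-changes of 0.30 with RE, 0.39 with H3 0.02, 0.22 with H3 0.2 and 0.36 with H3 2 (smallest adjusted p = 0.242). The constitutive chaperone genes were well expressed. hsp-1, the constitutive cytosolic HSP70, had log2 fold-changes of 0.24 to 0.31, hsp-90 0.11 to 0.29, and hsp-110, a nucleotide exchange factor of HSP70, 0.40 to 0.58. Both hsp-1 and hsp-110 had an unadjusted p under 0.05 in every treatment (limma), with adjusted p of 0.0919 or higher. Beside a rise of the hsp-16 cluster by 3.80 to 4.63 log2 units, the median over the cytosolic list was 0.26 with RE, 0.18 with H3 0.02, 0.24 with H3 0.2 and 0.21 with H3 2.

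Of 11 genes of the unfolded protein response of the endoplasmic reticulum, 0 were called in any treatment (2 at an unadjusted p under 0.05 with RE, 4 with H3 0.02, 2 with H3 0.2 and 3 with H3 2, in limma). hsp-4, its BiP chaperone, had log2 fold-changes of 0.25 with RE, 0.38 with H3 0.02, 0.15 with H3 0.2 and 0.26 with H3 2. ckb-2, a choline kinase gene induced through IRE-1 and XBP-1, had a log2 fold-change of 1.43 with H3 2 (adjusted p = 0.0589) and of 1.33 with H3 0.02 (adjusted p = 0.183). With H3 0.2 it had 1.085 (adjusted p = 0.225) and with RE 0.99 (adjusted p = 0.328). Blocking on the replicate number brought ckb-2 past the threshold with all 3 H3 concentrations (adjusted p = 0.00847 with H3 2, 0.0276 with H3 0.02 and 0.044 with H3 0.2). Blocking on the array set did so in all 4 treatments (largest adjusted p = 0.00593).

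Of 9 genes of the mitochondrial unfolded protein response, 0 were called (1 at an unadjusted p under 0.05 with RE, 1 with H3 0.02, 1 with H3 0.2 and 2 with H3 2, in limma). hsp-6, the mitochondrial HSP70, had log2 fold-changes of 0.19 with RE, 0.14 with H3 0.02, 0.18 with H3 0.2 and 0.29 with H3 2. ubl-5, a ubiquitin-like protein of this response, had a log2 fold-change of −0.91 with H3 0.2 (adjusted p = 0.16) and −0.99 with H3 2 (adjusted p = 0.0782). With RE its adjusted p was 0.114. Blocking on the array set brought ubl-5 past the threshold as down-regulated with RE (−1.17, adjusted p = 0.000967) and with H3 0.2 (−1.08, adjusted p = 0.00163), and blocking on the replicate number did so with RE (adjusted p = 0.0124).

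The genes that regulate hsp-16 were not called either, 0 of 8 in every treatment (1 at an unadjusted p under 0.05 with RE, 1 with H3 0.02, 1 with H3 0.2 and 3 with H3 2, in limma). The list holds hsf-1, its inhibitor gene hsb-1, ddl-1, ddl-2, daf-16, daf-2, pqm-1 and the kinase gene hpk-1. hsf-1 itself had a log2 level of 9.32 ± 0.32 with RE, against 8.98 ± 0.39 in the control (SD, n = 3). Its log2 fold-changes were 0.34 with RE (95% confidence interval −0.21 to 0.89), 0.16 with H3 0.02 (−0.39 to 0.72), 0.24 with H3 0.2 (−0.31 to 0.79) and 0.28 with H3 2 (−0.27 to 0.84). These are RNA levels, and HSF-1 is known to be controlled largely at the protein level.

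**Figure D4:**
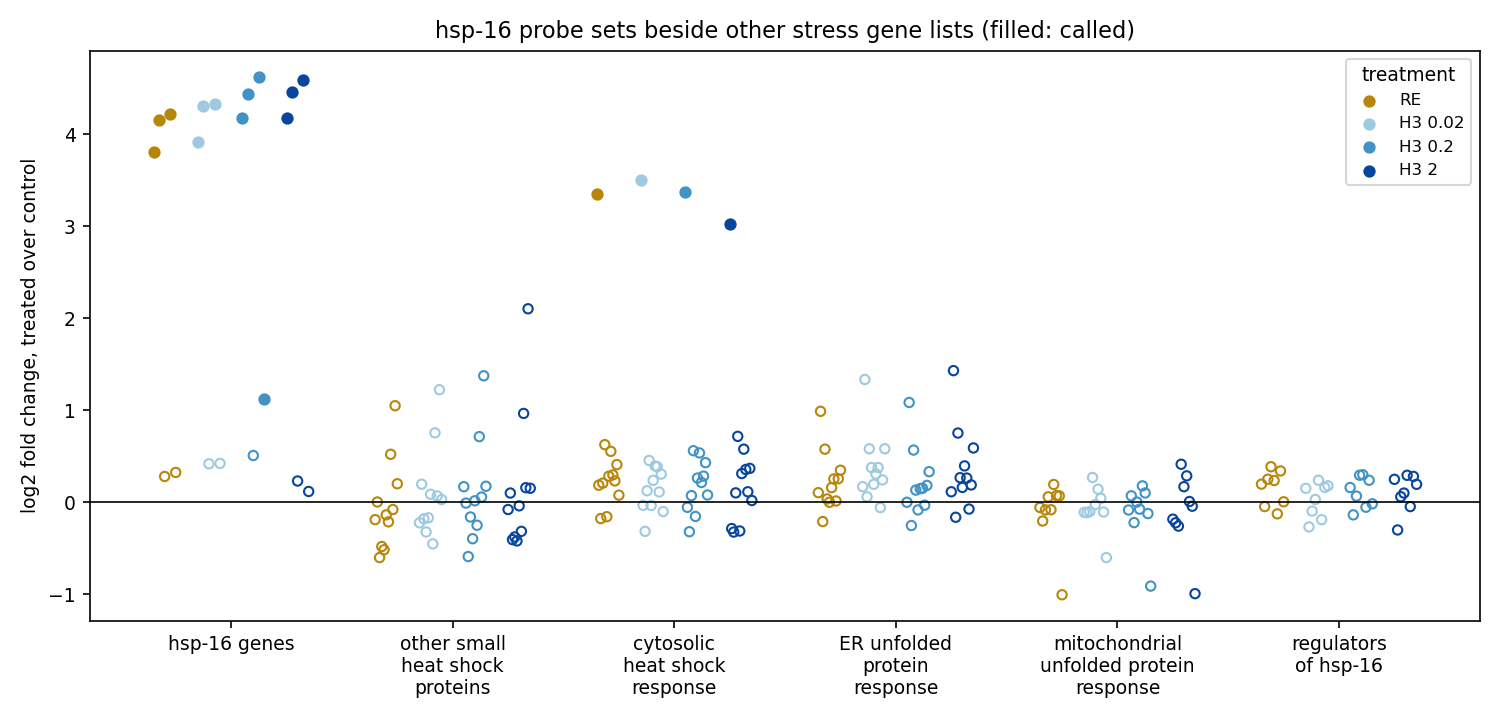
Log2 fold-change, treated over control, of the 5 distinct hsp-16 measurements and of each measured gene of 5 other stress lists. Filled points were called up-regulated (adjusted p of at most 0.05 and at least 2-fold) and open points were not called. Outside the hsp-16 genes the filled points are the F44E5.4/F44E5.5 pair, at 3.02 to 3.51.

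Genes with the most similar pattern were sought by Pearson's r over the 15 arrays to the mean of the 5 distinct hsp-16 measurements, among 25544 probe sets of 1 named gene. Of these, 72 had an r of at least 0.9. The r mainly follows the step between treated and control arrays, which the genes share. The 3 measurements of the larger cluster correlated with this mean at 0.995 to 0.9951, hsp-16.41 at 0.57 and hsp-16.2 at 0.56.

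The 5 genes with the highest r were Y17G7B.17 (0.98), rrf-2 (0.98), Y46H3A.5 (0.98), srlf-14 (0.97) and nit-1 (0.97). Y17G7B.17 changed by little, with log2 fold-changes of 0.47 to 0.57, so that a likeness in pattern is not one in size. srlf-14 changed most, with log2 fold-changes of 4.81 with RE, 4.08 with H3 0.02, 4.42 with H3 0.2 and 4.97 with H3 2, and was below the array medians in the control (mean 2.89). nit-1, a nitrilase-family gene, had log2 fold-changes of 2.24 with RE, 2.30 with H3 0.02, 2.66 with H3 0.2 and 2.56 with H3 2. rrf-2, of the RNA-dependent RNA polymerase family, had 1.51, 1.37, 1.58 and 1.43 in the same order of treatments, and 4 of these 5 genes, all but Y17G7B.17, were called in every treatment.

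Y46H3A.5, at chrV:1811345-1814884, lies 5469 bases from hsp-16.41, with the genes srt-42 and Y46H3A.4 between them. It had 5.73, 5.90 and 5.98 with RE, against 3.00, 3.08 and 3.23 in the control, and 5.67, 5.48 and 5.78 with H3 0.02, 5.73, 5.84 and 6.28 with H3 0.2, and 6.13, 5.80 and 5.61 with H3 2. All treated arrays were above the array medians and all control arrays below them, and its log2 fold-changes were 2.77 with RE, 2.54 with H3 0.02, 2.85 with H3 0.2 and 2.74 with H3 2 (largest adjusted p = 8.02e-06). The nearest protein-coding neighbours with a probe set of their own were taken on each side of the hsp-16.2 and hsp-16.41 pair. They were F36H9.1, srt-41, srt-42 and Y46H3A.4, with log2 fold-changes of −0.18 to 0.36, and none was called (smallest adjusted p = 0.492).

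Around the larger cluster, the neighbours oac-50, T27E4.7 and T27E4.1 were not called. F21C10.10, on the side of hsp-16.11, was down-regulated with RE (log2 fold-change −1.16, adjusted p = 0.0175), H3 0.2 (−1.13, adjusted p = 0.0179) and H3 2 (−1.24, adjusted p = 0.0078), and was not called with H3 0.02 (−0.76, adjusted p = 0.215). None of the 4 neighbours was up-regulated, and the highest of their log2 fold-changes was 0.24. Only 0.304% to 0.665% of all probe sets were called up-regulated in a treatment. A few genes without such a call, here or at the hsp-16.2 pair, thus do not stand out.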

How the data were processed

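Total RNA of whole worms was hybridised to 15 one-colour Affymetrix arrays, 3 per group. The authors normalised the arrays by RMA with quantile normalisation in Partek and deposited log2 expression values. For RMA, Partek and Expression Console the version is not given in the sources used. Probe sets were named through the platform annotation, with symbols updated through RefSeq gene IDs (25546 with 1 gene, 646 with several and 3125 with none named here).

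The deposited log2 values were used as they are. limma 3.58.1 in R 4.3.3 fitted 1 mean per group over all 15 arrays (lmFit, eBayes). Benjamini-Hochberg adjustment ran over the 29317 probe sets within each of 8 comparisons. Calls needed an adjusted p no larger than 0.05 and a change of 1 or more on the log2 scale in either direction. The study's methods name a one-way analysis of variance with Fisher's least significant difference, which was run as an alternative. Exact permutation tests used scipy 1.17.1 over all 455 relabelings of 12 treated and 3 control arrays.

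The genes named are all hsp-16 members, listed genes that were called, 5 fixed genes of other stress lists (hsf-1, hsp-70, hsp-4, hsp-6 and sip-1) and the 5 most similar genes. hsp-17, hsp-43, ckb-2, ubl-5, hsp-1, hsp-90, hsp-110, hsp-16.20, hsp-16.21 and the neighbours were named after their values were seen. Members and lists were chosen with earlier results of these data known. Arrays with the same replicate number deviated together (every residual correlation over 0.1, the lowest 0.42) in H3 0.02 and H3 2 vs. the control, H3 2 vs. H3 0.02 and RE vs. H3 0.2, and not in the other 4 comparisons. In the comparisons named, arrays of the same number were also in the same array set. In the other 4, the replicate 2 arrays were in opposite sets, at residual correlations of −0.59 to −0.51. Replicate number and array set can thus not be told apart in the comparisons named. In the other 4, the replicate 2 arrays, which share a number but not a set, deviated in opposite directions.

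The test was tried on simulated data for H3 2 vs. the control in 5 runs over 29317 probe sets with 200 changed. It called 33.2% of changes of 1 on the log2 scale, 72.4% of 1.5, 84.8% of 2 and 98% of 4, with 26 false calls in all runs. The simulated noise was independent between probe sets and equally wide in all groups. It thus held neither the array sets nor the larger control spread of the hsp-16 cluster, and these figures may not hold for the real arrays.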

Additional observations from a re-analysis of the deposited data

How the results depend on the processing

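The 3 measurements of the hsp-16.1 cluster kept their direction and their call in every comparison with the control under all 26 alternatives (312 of 312 values), at log2 fold-changes of 3.63 to 4.97 and a largest adjusted p of 0.0151 (limma). These 312 values are not separate checks, since the 3 measurements moved together. Dropping the fold threshold can only add calls. Leaving out an array of a group outside the comparison does not alter its fold-change. The alternatives were an intensity trend, robust eBayes, the test of the study's methods, 6 arrays only, named probe sets alone, a filter on low values, centring on array medians, quantile normalization once more, no fold threshold, the replicate block, the array set block, and each of the 15 arrays left out. The counts of members called, 4 with RE, 4 with H3 0.02, 5 with H3 0.2 and 4 with H3 2, were the same with the replicate block, and hsp-16.2 with H3 0.2 had an adjusted p of 0.00895 with it. The replicate block changed no call of a member. Between H3 2 and H3 0.2, differences near 0 changed sign: centring gave −0.031 for the first hsp-16.1/hsp-16.11 probe set and −0.010 for hsp-16.48/hsp-16.49, and the array set block gave 0.014 for the second hsp-16.1/hsp-16.11 probe set. With 1 array left out they ranged over −0.078 to 0.087 for the first hsp-16.1/hsp-16.11 probe set, −0.13 to 0.060 for the second and −0.005 to 0.050 for hsp-16.48/hsp-16.49, and hsp-16.41 between H3 0.2 and H3 0.02 over −0.086 to 0.259. The cause was not tested. The smaller change of the first hsp-16.1/hsp-16.11 probe set than of hsp-16.48/hsp-16.49 was −0.412 to −0.255 with 1 array left out. Its call was lost without control replicate 1 (−0.304) or control replicate 2 (−0.255). It was not lost without control replicate 3, although leaving out any control array lowers the number of relabelings. Over all probe sets, calls numbered 274 with RE, 183 with H3 0.02, 323 with H3 0.2 and 459 with H3 2, against 92, 38, 94 and 160 with 6 arrays only, where fewer arrays estimate the spread, and 607, 408, 651 and 907 with the array set block. Left-out arrays and other settings moved the list counts by at most 1 gene. These settings for other lists were chosen after seeing the data. The filter on low values leaves out hsp-16.2 and hsp-16.41. Probe sets below the array medians limit what can be read for hsp-16.2 and hsp-16.41.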
